A study of Mus musculus with 3 samples.

Results

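The cytosolic ribosomal protein genes of mouse T cells were taken as the gene names beginning with Rpl or Rps and a digit, or with Rplp or Rpsa, without the ribosomal S6 kinases (names beginning with Rps6k) and without names holding -ps, which mark pseudogenes. The rule found 85 of the 18029 genes measured, 51 of the large subunit by name and 34 of the small subunit by name, and left out 19 names. Rps19bp1 matched by name only, since it encodes a binding partner of Rps19 that is known as a regulator of the deacetylase SIRT1, and it was kept with its values given separately. The large-subunit paralog Rpl10l and the small-subunit paralog Rps4l had no row among the genes measured. Expression was tested for 84 members in each lineage, and the muscle paralog Rpl3l was not tested, with 0 UMIs (unique molecular identifiers, counts of single RNA molecules) in CD4+ and 1 UMI in CD8+ T cells from saline-treated mice.

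The cells were donor T cells from the spleens of irradiated B6D2F1 mice that had received B6 bone marrow, B6 T cells and a small number of T cells carrying the transgenic TEa T cell receptor, which recognises a peptide of the recipient. Recipients were given saline or cyclosporine (CSA), an inhibitor of the phosphatase calcineurin, at 5 mg/kg or 50 mg/kg each day from day 0 to day 6, and spleens were taken on day 7 from 6 mice per group, combined into 3 pools of 2 mice that were told apart by hashtag antibodies. Sorted CD4+ and CD8+ T cells were mixed 1:1 within a group and loaded as 1 droplet capture with 5′ chemistry, so capture and treatment are the same split of the cells and cannot be told apart, and a pool is the mean of its 2 mice. All groups shared the irradiation and the same graft, no group was without transplantation, and the 280 cells marked as TEa were left out unless stated. A table of 10371 CD4+ and 10833 CD8+ cells gave the authors' 13 CD4+ and 9 CD8+ clusters.

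Ribosomal proteins coat the rRNA of the small subunit, which decodes the mRNA, and of the large subunit, which joins amino acids, and the proteins are made in near-equal amounts because each ribosome holds about 1 copy of nearly all of them. Their mRNAs begin with a run of pyrimidines after a cytosine, the 5′ terminal oligopyrimidine (5′TOP) motif, through which the kinase mTOR and the protein LARP1 adjust how strongly they are translated. Resting T cells keep many of these mRNAs in a poorly translated pool, and activation raises both their translation and the production of ribosomes.

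The start regions of 6 members are shown because they give the member with the largest rise at 5 mg/kg (Rpl38, a short gene), a long gene with one of the 5 lowest changes at 50 mg/kg in both lineages (Rpl4), and parents with a paralog to compare (Rps27 with Rps27l, and Rpl22 with Rpl22l1). Each is the strand of the gene from 60 bases before to 24 bases after the annotated start of RefSeq on GRCm38.p6, and capitals mark a pyrimidine run that begins with C and holds at least 4 further pyrimidines within 3 bases of that start. Rps27l and Rpl22 have 2 annotated starts each. For such genes the start shown is the first with a run, or the first listed where none has a run. The positions are chr11:114668520-114668604 on the plus strand for Rpl38, chr9:64173327-64173411 on the plus strand for Rpl4, chr3:90213624-90213708 on the minus strand for Rps27, chr9:66946026-66946110 on the plus strand for Rps27l, chr4:152325666-152325750 on the plus strand for Rpl22 and chr3:28805448-28805532 on the plus strand for Rpl22l1.
Rpl38: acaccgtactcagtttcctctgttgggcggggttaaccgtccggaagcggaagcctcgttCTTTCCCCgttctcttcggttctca
Rpl4: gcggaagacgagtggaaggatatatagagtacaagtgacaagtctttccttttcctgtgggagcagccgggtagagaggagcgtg
Rps27: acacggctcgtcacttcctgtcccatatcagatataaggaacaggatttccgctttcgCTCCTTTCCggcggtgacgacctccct
Rps27l: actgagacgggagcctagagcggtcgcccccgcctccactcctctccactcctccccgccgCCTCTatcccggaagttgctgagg
Rpl22: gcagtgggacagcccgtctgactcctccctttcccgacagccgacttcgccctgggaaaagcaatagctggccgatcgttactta
Rpl22l1: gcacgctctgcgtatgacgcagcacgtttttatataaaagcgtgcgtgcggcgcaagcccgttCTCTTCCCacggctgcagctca

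Of the 85 members, 65 had a start in the RefSeq table, 10 of them more than 1 start, and 20 had none. A gene counted as having a run or motif when any of its starts had it. A 5′TOP-like run was found in 26 of the 65 members matched, against 13.5% of all 27025 genes of the table and 15.1% of the 8492 genes of the table that were tested here, and the runs were 5 to 18 bases long with a median of 8. An annotated start that is off by a few bases hides such a run, so the share describes the annotation as well as the genes. In the 300 bases from 250 before to 50 after the start, and on either strand, CCGGAA, the core of ETS factor sites, was found in 36 members (55.4%, against 16.7% of all genes and 34.5% of tested genes). GGGCGG, the GC box, stood in 40 members (61.5%, against 38.2% and 69.4%), and AAGATGGC, a YY1 motif, in 6 (9.23%, against 3.19% and 5.91%). TATAAA, searched on the strand of the gene in the 50 bases before the start, was found in 1 member, Rpl22l1 (1.54%, against 3.15% and 1.496%). The median changes with CSA at 50 mg/kg, on the log2 scale, were 0.96 in members with and 0.91 in members without a 5′TOP-like run in CD4+ T cells, and 1.27 and 1.23 in CD8+ T cells (26 and 38 members tested). A member whose run is hidden by its annotated start counts here as without a run. The 2 sets were not matched by coding length, with medians of 405 nucleotides with and 462 without a run.

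The depth and the makeup of the cells moved with treatment. Without TEa cells, there were 2969 to 4058 CD4+ and 2662 to 4639 CD8+ cells per group, and a pool held from 3994968 to 7592334 UMIs in CD4+ cells and from 4392100 to 11454636 in CD8+ cells. Depth per cell went up with dose, with medians of 3097, 4396 and 5979.5 UMIs in CD4+ cells of the saline, 5 mg/kg and 50 mg/kg groups and 4108, 6121.5 and 7183 UMIs in CD8+ cells. The captures shared 218 cell barcodes, and in each group 138 to 386 cells of a lineage did not have 1 clear hashtag of their own pool. The list of cycling genes took 0.165% to 0.181% of UMIs in CD4+ cells with saline and 0.104% to 0.123% with CSA, and 0.265% to 0.282% in CD8+ cells with saline and 0.102% to 0.171% with CSA. The nuclear RNA Malat1 took 0.482% to 0.508%, 0.262% to 0.301% and 0.155% to 0.163% of UMIs in CD4+ pools with saline, 5 mg/kg and 50 mg/kg, without overlap between the groups. Mitochondrial genes held 1.59% to 2.00% in every pool, the lists of B cell, plasma cell, erythroid, myeloid and NK cell genes at most 0.0348% each, and Cd4 was at 0 in CD8+ cells in every pool. Cd8a and Cd8b1 together took 0.0141% to 0.0153% of UMIs in CD4+ cells with saline, 0.00863% to 0.00957% at 5 mg/kg and 0.00208% to 0.00258% at 50 mg/kg, against 0.186% to 0.351% in CD8+ cells. Sorted cells of both lineages were mixed before capture, how they were told apart afterwards is not given in the sources used here, and an exact 0 in all CD8+ cells gives no check of that label. The part of depth, cycling, Malat1 and RNA of the other lineage in the results below was not tested except where cells were matched or left out.

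Ribosomal protein genes took up a larger share of the RNA of T cells from CSA-treated mice. In CD4+ T cells, the share of all UMIs that fell in the 85 genes was 15.3%, 15.4% and 15.1% in the 3 saline pools, 23.0%, 23.2% and 23.4% at 5 mg/kg, and 20.5%, 21.0% and 21.7% at 50 mg/kg. The pools of the 3 groups did not overlap, and the lower dose had the higher share, by 2.19 points. As a mean of the single cells' shares, in which shallow cells count as much as deep ones, the doses differed by -0.46 points (50 minus 5 mg/kg, SE 0.466) and their pools overlapped. The difference from saline was 7.95 percentage points at 5 mg/kg (standard error, SE, 0.138, n = 3 pools per group, ratio 1.52) and 5.76 points at 50 mg/kg (SE 0.351, ratio 1.38). In CD8+ T cells, the share was 13.3%, 13.4% and 13.9% with saline, 23.5%, 22.7% and 22.4% at 5 mg/kg, and 21.6%, 21.7% and 22.5% at 50 mg/kg. Both CSA groups lay above saline in every pool, by 9.34 points (SE 0.360, ratio 1.69) and 8.38 points (SE 0.343, ratio 1.62), while the pools of the CSA doses overlapped, with a difference of -0.96 points (50 minus 5 mg/kg). That difference was -2.80 points outside the cycling clusters and -1.13 points in cells with 1 clear hashtag, without overlap in either. Both differences use the same saline pools, and no p is given for a share over a chosen list. The TEa cells, which carry 1 receptor, had shares of 14.9% with saline (123 cells, pools from 14.7% to 15.01%), 21.9% at the lower dose (130 cells, 20.6% to 22.5%) and 23.0% at the higher dose (27 cells, 20.1% to 26.6%).

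**Figure D1:**
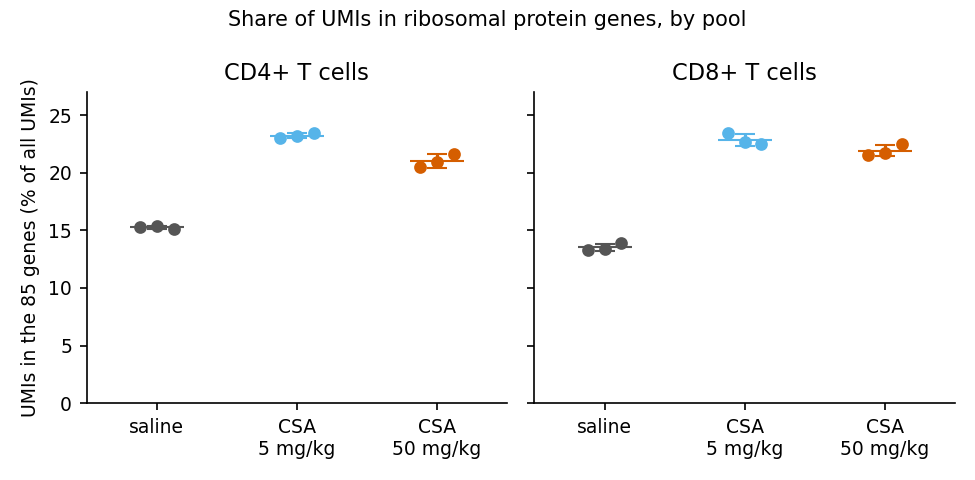
Share of all UMIs (%, vertical axis) that fell in the 85 ribosomal protein genes, by treatment (horizontal axis) in CD4+ and CD8+ T cells. Points are pools of 2 mice and bars are the mean and SD of 3 pools. All saline pools lie between 13.3% and 15.4% and all CSA pools between 20.5% and 23.5%.

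The share was also shifted in single cells. With saline, 67.4% of CD4+ and 74.8% of CD8+ T cells had fewer than 15% of their UMIs in these genes, against 22.4% and 10.4% of cells at 5 mg/kg and 10.3% and 3.96% at 50 mg/kg. The value of 15% is a line through a continuous range and no boundary between cell types, and cells between 14% and 16% made up 10.1%, 2.66% and 5.84% of CD4+ and 6.402%, 3.19% and 4.05% of CD8+ cells with saline, 5 mg/kg and 50 mg/kg. When each cell was thinned to 1500 UMIs, with 36, 203 and 32 shallower CD4+ cells and 0, 17 and 2 shallower CD8+ cells left out, the shares of cells under 15% were 67.3%, 18.1% and 9.76% in CD4+ and 74.4%, 10.1% and 4.33% in CD8+ T cells. In CD4+ T cells at 5 mg/kg, the cells under 15% were shallow, with a median of 1882.5 UMIs against 4976 for the others. Of all CD4+ cells of that group, the 452 cells under 2000 UMIs had a median share of 9.76%, and cells of 2000 to 4000 UMIs one of 23.4%.

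**Figure D2:**
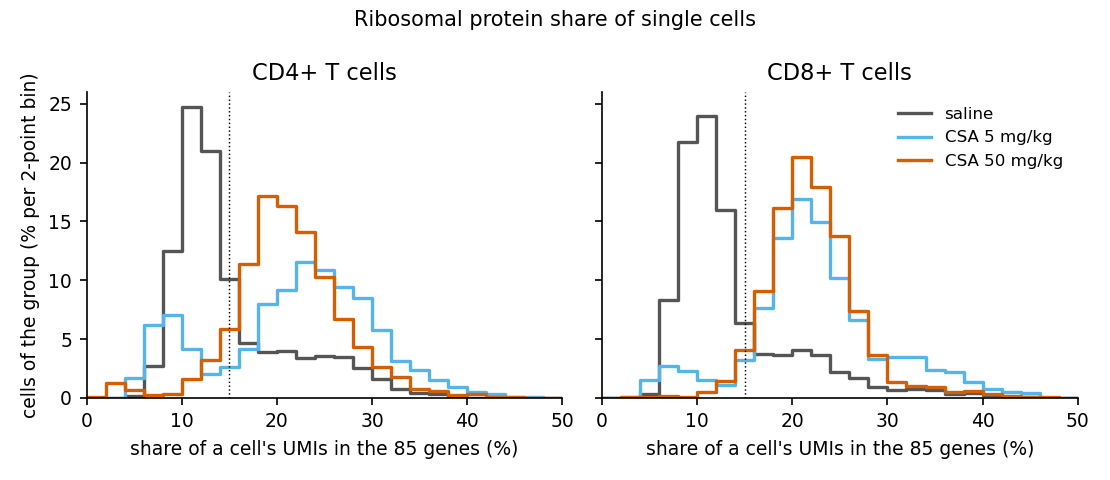
Distribution of the ribosomal protein share over single cells, with the share of a cell's UMIs (%) on the horizontal axis and the cells of the group per 2-point bin (%) on the vertical axis, as 1 line per treatment. The medians are 12.8%, 22.9% and 21.0% in CD4+ and 11.6%, 21.95% and 21.8% in CD8+ T cells with saline, 5 mg/kg and 50 mg/kg.

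Whether single members moved together was asked on counts summed per pool and scaled by edgeR's TMM method, where the median change of all genes tested lay within 0.02 of 0 on the log2 scale for both doses and lineages. In CD4+ T cells, all 84 members tested rose at 5 mg/kg and all 84 rose at 50 mg/kg in the quasi-likelihood test of edgeR (adjusted over all 10568 genes by the Benjamini-Hochberg method, threshold 0.05). Of all genes, 26.1% were higher and 25.6% lower at the lower dose, and 34.7% and 35.8% at the higher dose. The median log2 change of the members was 0.91 (quartiles 0.75 and 1.13) at 5 mg/kg and 0.93 (quartiles 0.76 and 1.09) at 50 mg/kg. In CD8+ T cells, all 84 members rose at 5 mg/kg (29.9% of all 10841 genes higher, 30.3% lower) and 83 rose at 50 mg/kg (37.1% higher, 36.9% lower), with medians of 1.14 and 1.26. The exception was Rpl39l, a paralog of Rpl39 that is best known from testis, with 35 UMIs with saline and 38 at 50 mg/kg in all CD8+ cells and a change of 0.29 (SE 0.406, adjusted p = 0.521 by edgeR). In pool sums, a change in the mixture of cell states and a change within the cells of a state cannot be told apart.

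The stalk and the rRNA-binding members rose at both doses. Rplp0, the base of the stalk that brings elongation factors to the ribosome, was at 3535, 3497 and 3508 CPM (counts scaled by TMM to a library of common size) in the saline CD4+ pools, at 6168, 6273 and 6355 at 5 mg/kg and at 6451, 6467 and 6943 at 50 mg/kg, which gave 0.91 on the log2 scale at 50 mg/kg (SE 0.0307, adjusted p = 3.1e-16 by edgeR). No saline pool reached a CSA pool. Its partners on the stalk, Rplp1 and Rplp2, changed by 1.02 and 1.18 at 5 mg/kg and by 0.91 and 0.94 at 50 mg/kg in CD4+ T cells, and by 1.31, 1.47, 1.29 and 1.25 in the same order in CD8+ T cells. Rpsa, a small-subunit protein also known as a laminin receptor, was at 4352, 4405 and 4271 CPM with saline, 7169, 7263 and 7408 at 5 mg/kg and 6815, 6843 and 7274 at 50 mg/kg in CD4+ T cells, which is a change of 0.75 and 0.68, and changed by 0.96 and 0.93 in CD8+ T cells. The CSA groups overlapped with each other and both stood clear of saline. Rpl5 and Rpl11, which carry the 5S rRNA into the large subunit and can bind Mdm2 when free, changed by 0.55 and 0.83 at 50 mg/kg in CD4+ and by 0.73 and 1.08 in CD8+ T cells. Rps6, the target of the S6 kinases, changed by 0.71 (SE 0.0371, adjusted p = 3.69e-13 by edgeR) and 0.92 (SE 0.0391, adjusted p = 3.95e-13) at 50 mg/kg in CD4+ and CD8+ T cells.

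Among the 5 lowest changes at 50 mg/kg, Rpl3, Rpl4 and the paralog Rpl7l1 were named in both lineages, Rps2 and Rps19bp1 in CD4+ and Rpl5 and Rpl39l in CD8+ T cells. Rpl4, which lines the exit tunnel of the large subunit, was at 912, 904 and 903 CPM with saline, 1238, 1258 and 1305 at 5 mg/kg and 1204, 1218 and 1215 at 50 mg/kg in CD4+ T cells, a change of 0.48 and 0.42 (SE 0.0315 and adjusted p = 1.47e-10 by edgeR for the latter). The groups with CSA stood clear of saline. Rpl3, near the peptidyl transferase centre, changed by 0.48 in CD4+ and 0.70 in CD8+ T cells at 50 mg/kg. Rps2, near the entry of the mRNA channel, changed by 0.47 and 0.76. Rps19bp1, the match by name, changed by 0.40 (SE 0.105, adjusted p = 0.00198 by edgeR) in CD4+ and by 0.74 in CD8+ T cells.

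The largest rises differed between the doses. At 5 mg/kg the largest was that of Rpl38, a large-subunit protein whose loss disturbs patterning of the mouse axial skeleton, in both lineages. Rpl38 was at 543, 580 and 548 CPM with saline, 2024, 1936 and 2058 at 5 mg/kg and 1257, 1228 and 1273 at 50 mg/kg in CD4+ T cells. The pools of the 3 groups did not overlap, with the lower dose highest. Its log2 change was 1.85 at 5 mg/kg (SE 0.0361, adjusted p = 1.43e-19 by edgeR) and 1.17 at 50 mg/kg in CD4+ T cells, and 2.08 and 1.53 in CD8+ T cells. At 50 mg/kg the largest rise in CD4+ T cells was that of Rpl36al, the autosomal paralog of the X-linked Rpl36a, which was at 62.6, 61.0 and 60.7 CPM with saline, 119, 108 and 117 at 5 mg/kg and 195, 194 and 190 at 50 mg/kg. The 3 groups followed the dose without overlap, and the change at 50 mg/kg was 1.65 (SE 0.052, adjusted p = 1.16e-16 by edgeR), with 1.87 in CD8+ T cells. Rps7, a small-subunit protein needed for rRNA maturation, was at 849, 841 and 832, at 1504, 1540 and 1597, and at 1994, 2069 and 2117 CPM in CD4+ T cells, again in the order of dose without overlap, with a change of 1.29 at 50 mg/kg and 1.67 in CD8+ T cells. Also among the 5 highest changes at 50 mg/kg were Rpl35a (1.26), Rpl39l (1.33, SE 0.37) and Rps27rt (1.61) in CD4+, and Rps27rt (2.24), Rpl41 (1.67) and Rpl35 (1.63) in CD8+ T cells.

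**Figure D3:**
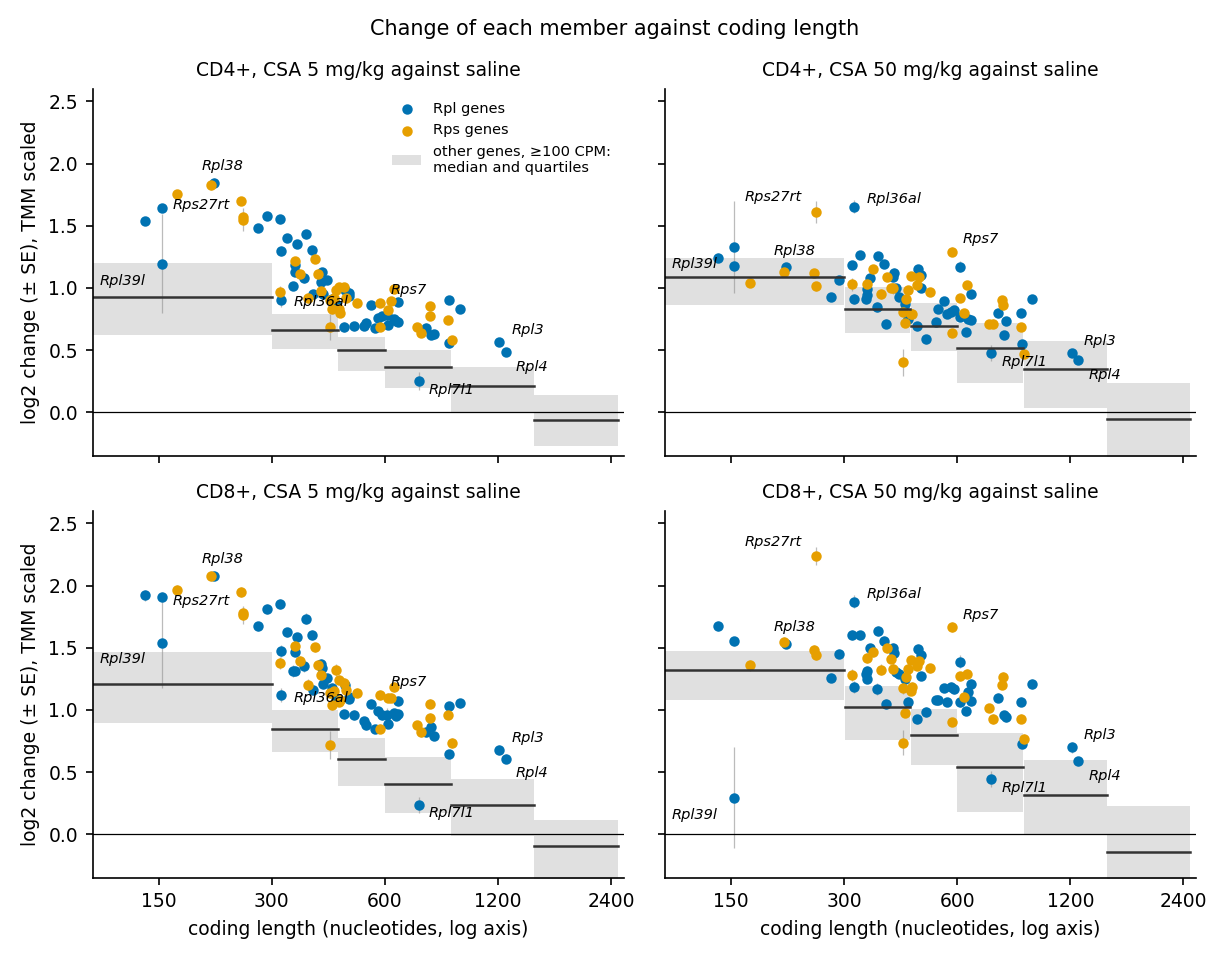
Log2 change of each of the 84 members tested (vertical axis, with standard error, TMM-scaled) against coding length (nucleotides, log axis), by lineage and dose, with Rpl genes in blue and Rps genes in orange. Grey blocks and black lines are the quartiles and medians of other genes of at least 100 CPM by length class. Members fall from left to right in every panel, from 1.85 for Rpl38 to 0.48 for Rpl4 in CD4+ T cells at 5 mg/kg, and Rpl36al and Rps7 stand above their neighbours at 50 mg/kg.

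Against saline, coding length went with the size of the rise in members and in other genes. With lengths from the GENCODE annotation, the Spearman correlation across the 84 members between coding length and log2 change was -0.86 at 5 mg/kg and -0.67 at 50 mg/kg in CD4+ T cells, and -0.88 and -0.63 in CD8+ T cells. Across other genes of at least 100 CPM it was -0.74 and -0.66 in CD4+ (n = 1529 genes) and -0.75 and -0.71 in CD8+ T cells (n = 1505 genes). Between the doses (50 against 5 mg/kg) the signs parted, with 0.51 across members and -0.28 across other genes of at least 100 CPM in CD4+ T cells, and 0.58 and -0.32 in CD8+ T cells. Within clusters at 5 mg/kg against saline, the correlation was negative in both sets of genes in every cluster tested except the naive CD8+ C7. There it was -0.70 across 82 members and 0.17 across 1466 other genes of at least 100 CPM. In the naive CD4+ C9 it was -0.66 and -0.42, and in CD8+ C5 it was -0.80 and -0.64. The genes of a correlation share the same libraries and are not independent replicates. The 11 members of up to 300 coding nucleotides had a median change of 1.58 at 5 mg/kg in CD4+ T cells, where other genes of that length had 0.93, and the 4 members of 901 to 1500 nucleotides had 0.57, where other genes had 0.21. At 50 mg/kg in CD4+ T cells the medians were 1.13 for members and 1.08 for other genes of up to 300 nucleotides, and 0.47 and 0.35 for those of 901 to 1500. In CD8+ T cells the same classes gave 1.91 and 1.21, and 0.71 and 0.23, at 5 mg/kg, and 1.48 and 1.32, and 0.73 and 0.32, at 50 mg/kg. In each of these classes the members lay above other genes of like length, by least for the short genes at 50 mg/kg. Values for the lengths between these classes, where most of the 84 members lie, are not given here. Members and other genes were not matched by level of expression. Whether length itself, RNA length in the library or another property of short genes goes with the change was not tested. With the length of the whole transcript in place of the coding length, the correlations of members were weaker, at -0.50 and -0.32 in CD4+ and -0.53 and -0.35 in CD8+ T cells. Across other genes of at least 100 CPM they were -0.72 and -0.63 in CD4+ and -0.72 and -0.66 in CD8+ T cells, near those with coding length. The transcript taken for a gene was that with the longest coding region, and the longest of these where several tied. It was long for some members, with 5179 nucleotides for Rps15a.

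Between the CSA doses the members split. In CD4+ T cells, 16 members were higher and 34 lower at 50 mg/kg than at 5 mg/kg, where 19.9% of all genes were higher and 21.3% lower, and the median change was -0.01. In CD8+ T cells, 38 were higher and 16 lower (20.0% and 21.0% of all genes), with a median of 0.06. When cells of the cycling clusters were left out, the CD8+ counts became 12 higher and 33 lower (14.3% and 15.2% of all genes), so the balance of calls turned. Without pool 3 of the 50 mg/kg group, 9 members were higher in CD4+ T cells. Short genes led the falls in both lineages, and their values were lowest for Rps29 (-0.72), Rps28 (-0.69) and Rpl38 (-0.68) in CD4+ and, apart from Rpl39l, for Rps29 (-0.61), Rpl38 (-0.55) and Rps28 (-0.53) in CD8+ T cells. In CD8+ T cells Rps21 (-0.46), Rpl37a (-0.41), Rpl37 (-0.36), Rpl39 (-0.36), Rps27 (-0.34) and Rpl36a (-0.28) also fell. Rps29, a small-subunit protein with a zinc-binding site, was at 2346, 2344 and 2390 CPM at 5 mg/kg and 1391, 1444 and 1473 at 50 mg/kg in CD4+ T cells (adjusted p = 1.31e-13 by edgeR), and the doses did not overlap. In the opposite direction, Rpl36al rose further by 0.75 in both lineages (SE 0.0495 and 0.0514), Rps7 by 0.41 and 0.54, and Rpl13a, which is also known for translational silencing of inflammatory mRNAs, by 0.39 and 0.43. In CD4+ T cells Rpl7l1 (0.22), Rpl24 (0.17), Rpl29 (0.17), Rpl8 (0.12), Rpl18 (0.11) and Rpl11 (0.11) were also higher. Rpl39l was lower by 1.25 in CD8+ T cells (SE 0.359, adjusted p = 0.00987 by edgeR), on pool values of 3.70, 4.70 and 2.93 CPM at 5 mg/kg and 2.22, 0.929 and 1.53 at 50 mg/kg, which did not overlap.

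Several members have a paralog, and the changes of parent and paralog are given side by side, at 5 and 50 mg/kg, without a test of the difference between them. Rpl22, which is needed for the development of T cells with an alpha-beta receptor, changed by 1.31 and 1.19 in CD4+ T cells and by 1.605 and 1.55 in CD8+ T cells, and its paralog Rpl22l1 by 1.08 and 0.85, and by 1.35 and 1.17. Rpl36a changed by 1.30 and 0.91 in CD4+ T cells, with the higher value at the lower dose, where Rpl36al, with the same coding length of 318 nucleotides, changed by 0.90 and 1.65. Rps27 changed by 1.57 and 1.01 in CD4+ and 1.78 and 1.44 in CD8+ T cells, and the p53-induced paralog Rps27l by 0.97 and 1.03, and by 1.38 and 1.28. Rps27rt, a retrogene with the same coding length as Rps27, was at 20.7, 16.9 and 17.6 CPM with saline, 63.6, 60.4 and 62.7 at 5 mg/kg and 86.0, 88.9 and 84.4 at 50 mg/kg in CD8+ T cells, in the order of dose without overlap. Reads that Rps27 and Rps27rt share could be assigned to either by the counting, so its values are uncertain. Rpl7 changed by 0.63 and 0.73 in CD4+ T cells and Rpl7l1 by 0.25 (SE 0.0715, adjusted p = 0.00566 by edgeR) and 0.48. Rpl39, in the exit tunnel, changed by 1.64 and 1.18 in CD4+ T cells, where Rpl39l had only 21, 38 and 55 UMIs with saline, 5 mg/kg and 50 mg/kg. Rpl10, which joins the large subunit late, changed by 0.75 and 1.15 at 50 mg/kg in CD4+ and CD8+ T cells, and the X-linked Rps4x by 0.90 and 1.202.

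Few members differed between CD8+ and CD4+ T cells of the same pool when the difference was averaged over the treatments of all 9 pools. Of 84 members, 8 were higher and 5 lower in CD8+ T cells (edgeR with pool as a block, where 23.4% of all 11177 genes were higher and 21.0% lower), with a median difference of 0.02. Among the highest were Rps27l (0.22, adjusted p = 0.00282) and Rpl7a (0.20, adjusted p = 0.00111), both by edgeR. The lower members were Rps27rt (-0.22), Rps27 (-0.18), Rpl29 (-0.13), Rpl12 (-0.13) and Rps19 (-0.10), the last a gene mutated in Diamond-Blackfan anaemia. In the saline pools alone, 70 members were lower and 0 higher in CD8+ T cells, with a median difference of -0.16, where 21.4% of all genes were lower. Leaving out 1 pool of either CSA group gave 5 higher, leaving out saline pool 1 gave 13 higher and 1 lower, and 1 was also lower without saline pool 2, saline pool 3 or pool 3 at 5 mg/kg, and 2 without pool 2 at 5 mg/kg.

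The rise with CSA was larger in CD8+ than in CD4+ T cells when all cells of a pool were summed. With equal weight for each cluster, the share rose by near-equal ratios in the lineages. The ratios to saline were 1.37 in CD4+ and 1.35 in CD8+ T cells at 5 mg/kg, and 1.304 and 1.303 at 50 mg/kg. That weighting used the 10 CD4+ and 7 CD8+ clusters with at least 10 cells in all 9 pools. In the test of the difference itself, an interaction of lineage and dose with pool as a block, 62 members had a larger change in CD8+ T cells at 5 mg/kg and 0 a smaller one (2.05% and 1.52% of all genes by edgeR), with a median difference of 0.19. At 50 mg/kg it was 80 and 0 members (8.83% and 10.5% of all genes), with a median of 0.30. At 5 mg/kg the number was 37 without saline pool 1, 31 without saline pool 2, 41 without pool 1 and 37 without pool 2 of the 5 mg/kg group. With cells outside the cycling clusters only, it was 26 members at 5 mg/kg (0.468% of all genes) and 38 at 50 mg/kg (2.89% of all genes). The largest differences were those of Rps27l (0.38, SE 0.068, adjusted p = 0.00195 by edgeR) and Rpl41 (0.35) at 5 mg/kg, and of Rps27rt (0.60, SE 0.109, adjusted p = 0.00026), Rpl41 (0.40) and Rps27 (0.40) at 50 mg/kg. Rpl39l, at 0.31 and -1.06, passed at neither dose (adjusted p = 0.853 and 0.197 by edgeR). At the low end, Rpl7l1 had differences of -0.05 and -0.06, Rps19bp1 of 0.00 and Rpl5 of 0.06 at 5 mg/kg, none of which passed, and Rpl4 one of 0.13 at 50 mg/kg, which did (adjusted p = 0.0234 by edgeR).

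Across the authors' clusters, the share of UMIs in the members ranged from 9.56% to 25.2% in CD4+ and from 8.93% to 35.3% in CD8+ T cells with saline. These are descriptions, since the clusters were made from expression that includes these genes. The lowest shares in saline were those of CD4+ C6 (9.56% ± 0.107, SD, n = 3 pools) and CD8+ C4 (8.93% ± 0.0224), both cycling effector clusters. Both stayed low with CSA, at 8.82% and 9.35% (2 pools at 50 mg/kg) in CD4+ C6 and 9.66% ± 1.42 at 5 mg/kg in CD8+ C4. The CSA cells behind these values were fewer and shallower than the saline cells. Median depth in CD4+ C6 was 5675 UMIs in 443 saline cells. It was 2536 in 181 cells of the lower dose and 2548.5 in 27 of the higher. For CD8+ C4, 1015 saline cells had a median of 6334 UMIs and 81 cells of the lower dose one of 4186. The part of depth in these low shares was not tested. The other clusters that the paper calls cycling were higher in saline, at 18.4% in CD4+ C3, 15.97% in CD8+ C2 and 13.2% in CD8+ C3. The activated effector clusters lay below these in their lineage in saline, at 12.5% ± 0.233 in CD4+ C0 and 11.5% ± 0.210 in CD8+ C0. CD4+ C5, also counted here among the cycling clusters, was level with CD4+ C0 in saline, at 12.5% ± 0.295. With 5 and 50 mg/kg, CD4+ C0 was at 18.5% ± 1.82 and 20.1% ± 0.568, and CD8+ C0 at 19.7% ± 0.348 and 20.7% ± 0.220. Effector clusters with less activation RNA were at 21.4% in CD4+ C1 and 20.8% in CD8+ C1 with saline. The highest shares in saline were those of the Tcf7-high precursor-like CD4+ C2 (25.2% ± 0.489) and of the naive CD8+ C7 (35.3% ± 0.434), and 66 members had their highest level with saline in C2 of CD4+ and 80 in C7 of CD8+ T cells. With CSA the naive CD4+ C9 was highest, at 36.1% ± 0.552 and 33.6% ± 2.03 against 22.9% ± 1.09 with saline. It held the highest level of 66 members at 5 mg/kg and 68 at 50 mg/kg. Gzmb, an effector granule enzyme, was at 554, 396 and 67.3 CPM in CD4+ C9 with saline, 5 and 50 mg/kg beside Ccr7 of naive cells at 507, 357 and 687. In CD8+ C7, Gzmb was at 510, 514 and 201 CPM and Ccr7 at 327, 254 and 336 CPM. In the effector C0 clusters Gzmb was at 865, 918 and 1524 CPM in CD4+ and 2462, 2581 and 1640 CPM in CD8+ T cells, and whether the Gzmb of the naive clusters came from their own cells or from free RNA in the capture was not tested.

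**Figure D4:**
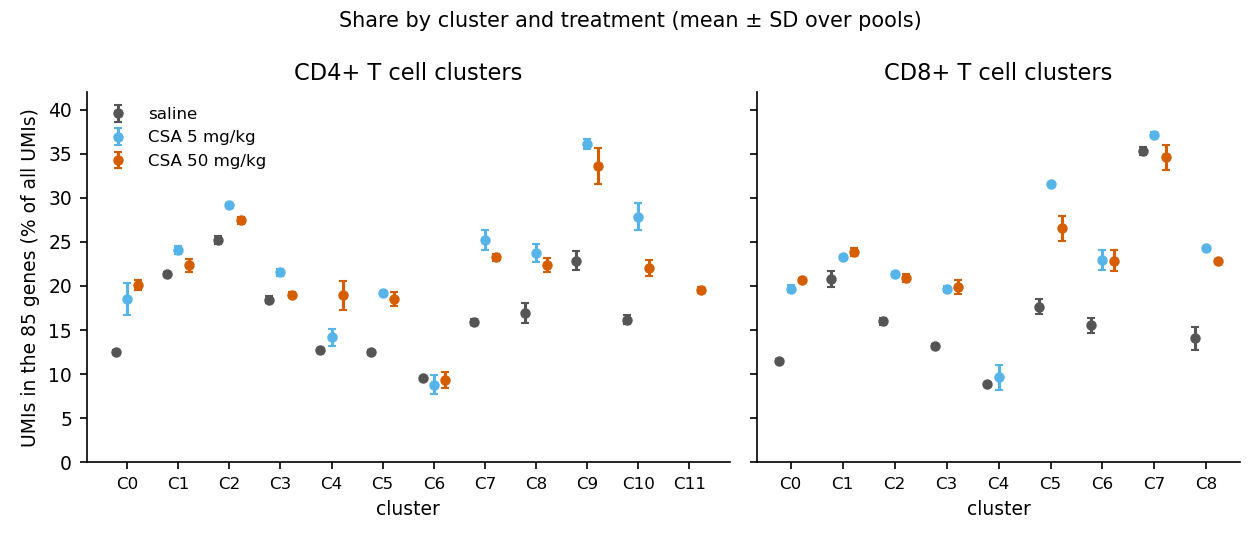
Share of UMIs in the 85 genes (%, vertical axis) by cluster (horizontal axis) and treatment, as the mean and SD over pools (those with 10 or more cells in that cluster). CD8+ C7 stays between 34.6% and 37.2% in all groups, while CD8+ C5 goes from 17.7% with saline to 31.5% and 26.6%.

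Within clusters, the members had their highest median changes in the activated effector clusters CD4+ C0 and CD8+ C0 and in CD8+ C5, among the 10 clusters tested. Tests were run on counts summed per pool and cluster, again against the same saline pools. In CD4+ C0, 82 of 83 members tested were higher at 5 mg/kg and 83 at 50 mg/kg, with medians of 0.81 and 1.15, where 10.6% and 26.6% of all genes were higher by edgeR. In CD8+ C0 it was 81 and 82 of 83 members, medians 1.10 and 1.36 (10.8% and 28.1% of all genes). The cycling CD8+ C2 had 82 and 83 of 84 members higher, with medians 0.66 and 0.77 (19.0% and 27.2%), and CD8+ C5, a mix of follicular helper-like and precursor-like cells, 81 and 81 of 83, with medians 1.15 and 1.00 (16.2% and 17.1%).

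The other clusters tested had medians of 0.70 or less. In CD4+ C1, 51 members were higher at each dose, with medians of 0.20 and 0.19, and 1 was lower at 50 mg/kg (2.47% and 9.38% of all genes higher, 10.9% lower at 50 mg/kg). In CD4+ C2, 59 and 63 were higher and 2 lower at 50 mg/kg, with medians of 0.25 and 0.29 (3.04% and 11.6% higher, 11.0% lower). In the cycling CD4+ C3, 68 and 54 were higher and 1 lower at 50 mg/kg, with medians of 0.32 and 0.19 (3.92% and 8.89% higher, 8.86% lower). CD8+ C1 had 55 and 76 of 83 higher, with medians of 0.25 and 0.41 (3.52% and 13.4%). In the naive CD4+ C9, 75 and 71 of 81 were higher, with medians of 0.70 and 0.59 (7.65% and 11.2%). Only 1778 genes were tested in C9, against 7035 in CD4+ C1, so its shares over all genes cover a smaller set. With saline, C9 cells had a median of 1981 UMIs, and the smallest pool held 25 of them. The differences between clusters were not tested, and the single falls rest on few pools: without 1 pool the members lower at 50 mg/kg were 1 to 2 in CD4+ C1, 0 to 3 in CD4+ C2 and 0 to 1 in CD4+ C3.

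In the naive CD8+ C7 the medians were 0.04 and -0.03, and 18 of 82 members were higher at 5 mg/kg (0.685% of all genes). They were led by the short genes Rpl38 (0.80, SE 0.0836, adjusted p = 7.44e-08 by edgeR), Rps29 (0.77) and Rps28 (0.74). At 50 mg/kg 2 members were higher there, Rpl36al (0.93) and Rps27rt (0.87), and 5 were lower, Rps12 (-0.30), Rps6 (-0.29), Rps18 (-0.29), Rpl12 (-0.28) and Rps9 (-0.22), where 1.25% of all genes were higher and 2.26% lower by edgeR. Those counts rest on single pools: 15 were lower without pool 1 at 50 mg/kg, 0 without saline pool 1 or 2, 1 without saline pool 3 or pool 2 or 3 at 50 mg/kg and 3 without pool 1 at 5 mg/kg, and 0 were higher without saline pool 3, which also left 11 higher at 5 mg/kg. Rpl12, at the base of the stalk, was also the member that fell in CD4+ C1 (-0.23, adjusted p = 0.000603), and it fell with Rpl22l1 (-0.19) in CD4+ C2 (-0.13, adjusted p = 0.041), while Rpl4 (-0.19, adjusted p = 0.0232) fell in CD4+ C3. Rpl36al was higher at 50 mg/kg in all 10 clusters tested, by 0.85 to 2.16, and Rps7 was higher in 9, by 0.42 to 1.98, with 0.23 in CD8+ C7 (adjusted p = 0.074). Rpl38 was higher at 5 mg/kg in all 10 clusters, by 0.80 to 2.14, and its change was smaller at 50 mg/kg in each of them, for example 1.08 against 0.28 in CD4+ C1. Rps27l was not called at either dose in CD4+ C1, C2 and C9 and CD8+ C1 and C7.

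**Figure D5:**
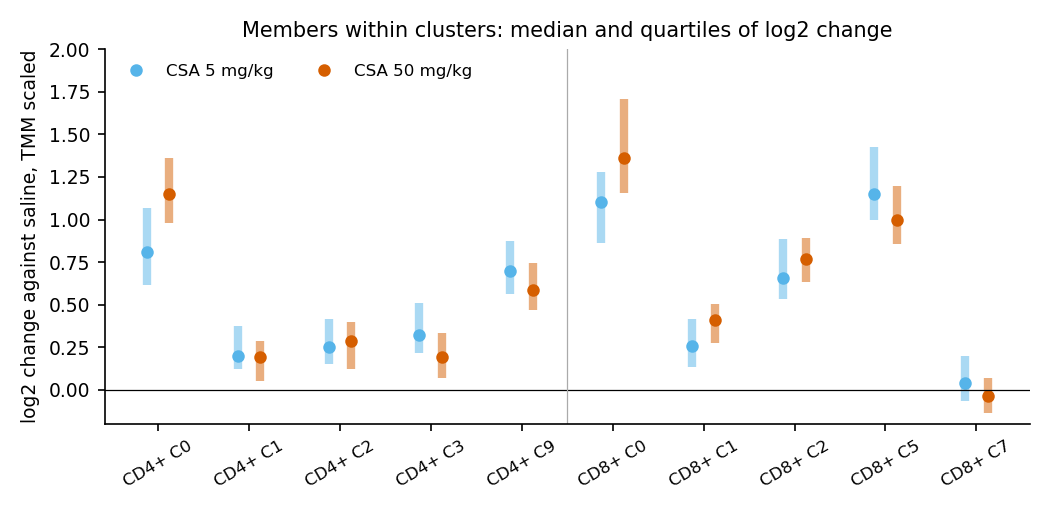
Median (point) and quartiles (bar) of the log2 change of the members against saline (vertical axis, TMM-scaled) within 5 CD4+ and 5 CD8+ clusters (horizontal axis), at 5 and 50 mg/kg. The medians run from 0.19 in CD4+ C1 and C3 at 50 mg/kg to 1.36 in CD8+ C0 at 50 mg/kg, with those of CD8+ C7 at 0.04 and -0.03.

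Other genes of the translation machinery were read from lists of known function, whose counts stand beside shares over all genes at 50 mg/kg of 34.7% higher and 35.8% lower in CD4+ and 37.1% and 36.9% in CD8+ T cells. Of the ribosomal proteins outside the name rule, Fau, which is made as a fusion with a ubiquitin-like protein, and Rack1, a scaffold on the small subunit, rose at 50 mg/kg, by 1.13 and 0.58 in CD4+ and by 1.47 and 0.86 in CD8+ T cells. Of 19 other 5′TOP and translation genes, 14 rose and 2 fell in CD4+ and 16 rose and 1 fell in CD8+ T cells at 50 mg/kg, with medians of 0.64 and 0.76. Among them, Eef1a1, which brings aminoacyl-tRNA to the ribosome, changed by 0.66 and 0.87, and Tpt1 by 0.88 and 1.19. Of 78 mitochondrial ribosomal proteins, which build the separate ribosome of mitochondria, 71 rose in CD4+ and 72 in CD8+ T cells and 0 fell, with medians of 0.68 and 0.84.

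Genes that make ribosomes had calls in both directions, and those of the assembly genes were near the shares over all genes. Initiation factors and growth regulators also had calls in both directions. Of 46 genes of ribosome assembly and rRNA processing, 13 rose and 13 fell in CD4+ and 17 rose and 17 fell in CD8+ T cells at 50 mg/kg, with medians of -0.09 and -0.01. Ncl, the abundant nucleolar protein nucleolin, fell by 0.47 and 0.51 on the log2 scale, and the rRNA methyltransferase Fbl changed by 0.13 (adjusted p = 0.0678 by edgeR) and 0.20. Of 10 genes of RNA polymerase I and rRNA transcription, 3 rose and 5 fell in CD4+, and 5 rose and 5 fell in CD8+ T cells. Polr1a, the catalytic subunit, fell by 0.65 and 0.78, and Polr1d, shared with RNA polymerase III, rose by 0.79 and 0.99. Of 14 initiation factors, 9 rose and 3 fell in each lineage, with medians of 0.27 and 0.16. Of 13 regulators of growth and of these genes, 5 rose and 5 fell in CD4+ and 6 rose and 6 fell in CD8+ T cells, and Mtor had values of -0.27 and -0.27 that did not pass (adjusted p = 0.0696 and 0.0523 by edgeR). The genes of these lists have longer coding regions than the members, with a median of 1752 nucleotides for the assembly genes, and were not matched to them by length.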

How the data were processed

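Per the labels, donor T cells of 9 pools were captured with 10x 5′ chemistry, and the authors deposited raw counts of UMIs per gene and cell, counts of hashtag antibodies, and a fraction of mitochondrial UMIs per cell, with pool, cluster and TEa mark. The submitters' processing notes name Cell Ranger, Seurat 3.0.0 and mm10; the annotation is not given in the sources used here. CD8+ clusters were matched to the study's numbers by their cell numbers. Counts were summed per pool (n = 3 per group, so p-values measure the spread between pools) and tested over all genes in edgeR 4.0.16 (R 4.3.3; filterByExpr, TMM, quasi-likelihood test, Benjamini-Hochberg threshold 0.05). Cluster sums used pools with at least 10 cells. Hashtag numbers did not pair pools: correlations of deviations between same-numbered pools were -0.148 to 0.130. Recovery of 200 genes, changed equally in both directions, was tested on simulated data. The simulation held no one-sided rise of abundant genes such as that of the members, so it gives no check of TMM scaling under such a rise.

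The members and lists were chosen with earlier results of these data known. Named members are the 5 highest and 5 lowest changes at 50 mg/kg per lineage, those called against most members, the 3 highest and 3 lowest differences between lineages, and fixed members (stalk, 5S-binding, Rpsa, Rps6, parents and paralogs, Rps19bp1); some genes that the rule names are not reported here, and other names in cluster results were chosen after their values were seen. Alternatives were library size scaling, TMM without members, DESeq2 1.42.0, no filter, 2 groups only, hashtag number as block, cells of 4000 to 8000 UMIs, cells outside cycling clusters, saline pools only, each pool left out and, for shares, equal cluster weights, mean over cells, another denominator and TEa cells; cells with 1 clear hashtag were added after seeing the data. Doublets were not called again. Clonotype columns, module scores and embeddings were not used.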

Additional observations from a re-analysis of the deposited data

Results flagged for a closer look

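The change of ribosomal protein genes with CSA differed between CD8+ and CD4+ T cells in the test of the difference itself, an interaction of lineage and dose with pool as a block in edgeR's quasi-likelihood test. It passed for 62 of 84 members at 5 mg/kg and for 80 of 84 at 50 mg/kg, with the larger change in CD8+ T cells in each, where 2.05% and 8.83% of all genes had the larger change in CD8+ T cells. Leaving out 1 pool gave 31 to 73 members at 5 mg/kg and 76 to 80 at 50 mg/kg, with the 31 without saline pool 2. Outside the cycling clusters the numbers were 26 and 38, against 0.468% and 2.89% of all genes. With equal weight for each cluster, the ratios of the share to saline were near-equal in the lineages. They were 1.37 in CD4+ and 1.35 in CD8+ T cells at 5 mg/kg, and 1.304 and 1.303 at 50 mg/kg.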

How the results depend on the processing

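All dose comparisons against saline kept their number of members higher within 1.5 times under every alternative in whole lineages, and 77 of 832 counts over all comparisons and settings moved by more. The causes were not tested. Library size scaling moved the median of all genes to -0.37 and -0.45 at 5 and 50 mg/kg in CD4+ and to -0.43 and -0.53 in CD8+ T cells, and 82, 79, 83 and 80 members were then higher, with 1 lower in CD8+ T cells at 5 mg/kg. For 50 against 5 mg/kg, the number higher in CD4+ T cells was 6 with library size scaling and 4 in cells of 4000 to 8000 UMIs, and in CD8+ T cells 15 were higher and 31 lower with library size scaling, and 12 higher and 33 lower outside cycling clusters. For CD8+ against CD4+ T cells, library size scaling gave 4 higher and 24 lower, cells of 4000 to 8000 UMIs 2 higher, DESeq2 3 lower, cells with 1 clear hashtag 3 lower, and saline pools only 0 higher and 70 lower. The larger change in CD8+ T cells at 5 mg/kg held for 21 members in cells of 4000 to 8000 UMIs and for 26 outside cycling clusters, and at 50 mg/kg for 38 outside cycling clusters.

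Within clusters, library size scaling gave, at 5 mg/kg, 30 higher and 1 lower in CD4+ C1, 39 higher in CD4+ C3, and 30 higher and 1 lower in CD8+ C1. At 50 mg/kg it gave 29 higher and 8 lower in CD4+ C1, 10 lower in CD4+ C2, 23 higher and 11 lower in CD4+ C3, 1 lower in CD8+ C1, and 5 higher and 8 lower in CD8+ C7. TMM factors without the members gave 1 lower in CD4+ C2 and 3 lower in CD8+ C7 at 50 mg/kg. DESeq2 gave 0 lower in CD4+ C2 and 0 higher in CD8+ C7 at 50 mg/kg, and 1 lower in CD8+ C7 at 5 mg/kg.

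When 1 pool was left out, the members higher at 50 against 5 mg/kg in CD4+ T cells were 9 to 18, those higher and lower in CD8+ against CD4+ T cells 5 to 13 and 1 to 7, and those with the larger change in CD8+ T cells at 5 mg/kg 31 to 73. At 50 mg/kg, the members lower were 1 to 2 in CD4+ C1, 0 to 3 in CD4+ C2 and 0 to 1 in CD4+ C3, and in CD8+ C7 they were 0 to 15, with 0 to 3 higher, against 11 to 20 higher at 5 mg/kg.

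Differences in the share, in percentage points at 5 mg/kg, 50 mg/kg and between the doses, were 9.67, 6.87 and -2.80 in CD4+ T cells of 4000 to 8000 UMIs and 10.8 and 9.69 in such CD8+ T cells. Outside cycling clusters they were 8.397 and 6.29 in CD4+, and 10.2, 7.42 and -2.80 in CD8+ T cells. With equal cluster weights they were 6.485, 5.30 and -1.18 in CD4+, and 6.52 and 5.62 in CD8+ T cells. The mean of cells' shares gave 6.62 at 5 mg/kg and -0.46 between the doses in CD4+, with overlapping pools, and -0.38 between the doses in CD8+ T cells, and the other denominator 8.13 at 5 mg/kg in CD4+ T cells. Single members turned their sign with library size scaling: Rpl7l1 to -0.11 in CD4+ and -0.19 in CD8+ T cells at 5 mg/kg and -0.086 in CD8+ at 50 mg/kg, and Rpl4 to -0.018 and Rps19bp1 to -0.037 in CD4+ at 50 mg/kg. The pools share only a hashtag number, and with that number as a replicate block 16 members were higher and 34 lower at 50 against 5 mg/kg in CD4+ T cells, and 35 and 15 in CD8+ T cells.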
